A study of Mus musculus with 8 samples.

Results

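The subject here was a set of 34 nuclear genes that encode subunits of respiratory complexes II, III and IV and of ATP synthase (complex V), together with cytochrome c, in mouse brown adipose tissue. The members were listed by name without the cytochrome oxidase subunits that come as paired isoforms, and all 34 were found among the 54385 Ensembl identifiers of the deposited table. They comprised 4 subunits of complex II, 9 of complex III, the carrier cytochrome c, 6 of complex IV and 14 of complex V. The rule that names them uses no expression value.

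RNA was sequenced from interscapular brown adipose tissue of C57BL/6N mice aged 20 weeks and fed chow. The 4 cKO libraries carried the genotype Adcy3-FL/FL/Adipoq-wt/cre, in which a Cre recombinase under the adiponectin promoter deletes the floxed part of Adcy3 in adipocytes. The 4 WT libraries carried the same floxed alleles, and 3 of them were labelled Adcy3-FL/FL/Adipoq-wt/wt. WT replicate 4 is titled WT while its genotype entry carries the Cre, and it was analysed by its title. The product of Adcy3 is adenylyl cyclase 3, which forms cyclic AMP, and the Cre is designed to leave the gene intact in the other cell types of the tissue. The sample labels were followed for the tissue, which the design text calls inguinal. Nothing in the labels ties a library to an animal of its own, and the p-values below measure the spread between libraries, which may be technical.

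The respiratory chain passes electrons from NADH and succinate to oxygen and pumps protons across the inner mitochondrial membrane, and ATP synthase lets the protons return to make ATP. Complex II is built from nuclear genes alone, whereas complexes III, IV and V also contain subunits encoded by the mitochondrial genome. Brown fat is dense in mitochondria and rich in respiratory chain, and in rodents it is known for having little ATP synthase relative to that chain, which has been linked to a low level of the c-ring gene Atp5g1.

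Adcy3 had 17.95, 20.9, 25.3 and 21.5 counts per 1000000 (CPM) in cKO libraries, against 112, 118, 61.7 and 118 CPM in WT libraries, with an edgeR adjusted p of 0.000925. WT replicate 4 lay with the other WT libraries. Libraries held 10712795 to 32436907 counts, and the lowest count of any member in any library was 85. All 8 brown adipocyte markers were present in every library, Ucp1 averaging 3167 ± 1025 CPM in cKO and 2571 ± 324 CPM in WT libraries (SD, n = 4 each). Of the 8, 5 had positive and 3 negative log2 fold changes (median 0.16), and none passed the adjusted threshold in edgeR. Prdm16, a regulator of brown adipocyte identity, was the 1 marker of the list whose groups did not overlap, with 30.7 ± 4.03 CPM in cKO and 17.8 ± 3.78 CPM in WT libraries, a log2 fold change of 0.79, an unadjusted edgeR p of 0.000233 and an adjusted p of 0.242. Over all genes tested, the groups did not overlap for 3.5% in either direction and for 1.23% higher in cKO. An unadjusted edgeR p under 0.05 was found for 5.6% of them. The summed level of 14 skeletal muscle markers, none of them at 0 in any library, varied far more within groups, with 11712, 3298, 200 and 2484 CPM in cKO libraries and 75.2, 2105, 444 and 8962 CPM in WT libraries (replicates 1 to 4 of each group). The summed macrophage markers ran from 37.6 to 88.9 CPM in cKO and from 49.2 to 77.7 CPM in WT libraries, and the summed endothelial markers from 407 to 488 CPM in cKO and from 399 to 635 CPM in WT libraries.

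The c-ring, the rotor of ATP synthase, is made from 3 genes whose precursors differ and whose mature proteins are the same. The annotated coding sequences of Atp5g1 (136 codons), Atp5g2 (146 codons) and Atp5g3 (141 codons) translate to the same last 78 residues. Over those 234 coding bases Atp5g1 and Atp5g2 differed at 36 positions, Atp5g1 and Atp5g3 at 50, and Atp5g2 and Atp5g3 at 53, so reads that cover such positions tell the 3 genes apart. The stretches are shown because the level of the c-ring in these libraries is a sum over genes that only their sequence separates, with capitals at the 63 positions that are not the same in all 3 genes (GENCODE M21, GRCm38).
Atp5g1: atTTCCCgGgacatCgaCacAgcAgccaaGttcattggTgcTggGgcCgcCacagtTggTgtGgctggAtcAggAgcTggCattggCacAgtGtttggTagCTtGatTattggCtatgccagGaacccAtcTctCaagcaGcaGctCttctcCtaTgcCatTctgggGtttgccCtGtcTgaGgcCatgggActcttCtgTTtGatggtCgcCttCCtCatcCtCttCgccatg
Atp5g2: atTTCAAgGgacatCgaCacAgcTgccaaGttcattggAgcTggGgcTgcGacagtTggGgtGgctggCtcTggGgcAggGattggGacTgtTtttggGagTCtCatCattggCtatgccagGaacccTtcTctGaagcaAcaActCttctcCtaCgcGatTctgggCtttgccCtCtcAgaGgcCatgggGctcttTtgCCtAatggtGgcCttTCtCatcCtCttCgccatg
Atp5g3: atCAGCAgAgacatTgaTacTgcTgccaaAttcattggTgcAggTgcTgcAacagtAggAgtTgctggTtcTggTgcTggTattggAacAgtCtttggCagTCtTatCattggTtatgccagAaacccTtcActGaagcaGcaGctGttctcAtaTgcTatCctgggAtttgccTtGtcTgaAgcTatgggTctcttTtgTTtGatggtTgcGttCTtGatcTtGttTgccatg

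Cytochrome c, which carries electrons from complex III to complex IV, posed the opposite problem. The 315 coding bases of Cycs (chr6:50562563-50566538, minus strand) were found without a difference in Gm10053 (chr19:24875686-24876631, plus strand), an intron-free copy annotated as protein-coding. A further copy, the processed pseudogene Gm13772 (chr2:90804260-90804576, minus strand), differed at 2 neighbouring positions, C115T and G116A, counted from 1 at the start codon with the base of Cycs first. The first 240 coding bases of Cycs are given with these 2 bases in capitals, since they are part of what the counting had to divide among the 3 genes.
Cycs: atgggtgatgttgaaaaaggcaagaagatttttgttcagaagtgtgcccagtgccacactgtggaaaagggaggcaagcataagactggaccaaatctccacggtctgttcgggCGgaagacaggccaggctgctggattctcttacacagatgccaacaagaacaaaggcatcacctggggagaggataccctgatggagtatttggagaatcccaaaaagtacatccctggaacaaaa

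The 250 bases upstream of the start site are shown for the c-ring genes, whose levels lay far apart, and for Atp5e, the member whose groups did not overlap (RefSeq, GRCm38.p6). Capitals mark matches to letters bound by known regulators of nuclear respiratory genes.
Atp5g1 promoter, chr11:96075632-96075881, minus strand: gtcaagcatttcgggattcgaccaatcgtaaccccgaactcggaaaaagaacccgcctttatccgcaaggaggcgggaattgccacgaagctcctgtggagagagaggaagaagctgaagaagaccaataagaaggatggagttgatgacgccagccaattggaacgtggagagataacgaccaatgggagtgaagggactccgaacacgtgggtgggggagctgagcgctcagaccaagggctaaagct
Atp5g2 promoter, chr15:102671048-102671297, minus strand: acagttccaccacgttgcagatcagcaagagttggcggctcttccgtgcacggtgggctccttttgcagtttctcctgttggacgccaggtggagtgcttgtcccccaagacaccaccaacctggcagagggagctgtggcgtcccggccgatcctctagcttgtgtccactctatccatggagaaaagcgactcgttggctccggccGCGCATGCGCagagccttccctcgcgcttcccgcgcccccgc
Atp5g3 promoter, chr2:73911327-73911576, minus strand: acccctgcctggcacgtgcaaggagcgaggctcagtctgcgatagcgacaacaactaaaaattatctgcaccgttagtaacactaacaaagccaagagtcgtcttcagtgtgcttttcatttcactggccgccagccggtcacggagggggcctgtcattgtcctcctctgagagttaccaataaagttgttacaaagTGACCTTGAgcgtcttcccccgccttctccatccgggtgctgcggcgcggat
Atp5e promoter, chr2:174464102-174464351, minus strand: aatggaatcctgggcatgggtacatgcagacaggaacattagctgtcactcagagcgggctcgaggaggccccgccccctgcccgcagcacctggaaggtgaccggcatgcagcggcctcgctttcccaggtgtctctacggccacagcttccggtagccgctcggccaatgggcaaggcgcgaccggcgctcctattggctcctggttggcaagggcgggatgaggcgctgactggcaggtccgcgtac

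The 4 motifs were searched on both strands, from 250 bases before to 50 bases after the start site. RefSeq promoters were found for 27 of the 34 members. GCGCATGCG, read by NRF1, occurred in 6 of these 27 (22.2%), against 1.95% of 27025 genes with a promoter. TCAAGGTCA, read by estrogen-related receptors, occurred in 2 (7.41%), against 0.466% of genes. CCGGAAGT, read by ETS factors such as GABP, occurred in 3 (11.1%), against 4.31% of genes, and AAGATGGC, read by YY1, in 2 (7.41%), against 3.19% of genes. At least 1 of the 4 was found in 12 of the 27 (44.4%), against 9.39% of genes. The palindromic ends of the NRF1 letters let 1 site match on both strands, as in Atp5g2, where it lies 42 bases before the start. Atp5g3 holds the estrogen-related receptor letters on the other strand, 52 bases before the start. Neither Atp5g1 nor Atp5e held any of the 4 in the 250 bases before the start, which says only that these letters are not there.

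The members were among the most abundant transcripts of the tissue. Levels between genes were compared as TPM, the counts divided by the length of the longest principal coding transcript and scaled to 1000000 per library. On that scale 32 of the 34 members lay at or above the 95th percentile of the 14553 genes tested and 23 at or above the 99th, the exceptions being the c-ring genes Atp5g1 and Atp5g2. The highest member was Atp5b, the catalytic beta subunit of the F1 head of ATP synthase, at 3190 ± 320 TPM (SD over all 8 libraries). It was followed by Atp5a1, the alpha subunit of the F1 head, at 1611 ± 168 TPM and by Cox6b1, a small subunit of complex IV, at 1222 ± 176 TPM. This order depended on the length used. With the median coding transcript Uqcrc1 (2571 TPM) exceeded Atp5b (2548 TPM), and Sdha (1390 TPM) exceeded Cox6b1 (1242 TPM) and Atp5a1 (1235 TPM). With the shortest principal transcript Atp5b stayed highest, but Uqcrq (1379 TPM) and Cox6c (1235 TPM) exceeded Cox6b1 (1156 TPM).

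In complex II the flavoprotein Sdha, which oxidises succinate, stood at 1087 ± 135 TPM and the membrane anchor Sdhc lowest at 171 ± 13.9 TPM, a ratio of 6.36. The iron-sulfur subunit Sdhb (734 TPM) and the anchor Sdhd (550 TPM) lay between them. The place of Sdhc depended on its length, since the median coding transcript put it at 532 TPM, above Sdhd at 440 TPM. In complex III the core subunit Uqcrc1 was highest at 1038 ± 93.7 TPM, and the other members apart from Uqcrq lay between 648 and 872 TPM. Uqcrq, a small supernumerary subunit, was lowest at 388 ± 90.1 TPM, but this value depended on its length too, since the shortest principal transcript in place of the longest put it at 1379 TPM. The highest place of Uqcrc1 held with the median coding transcript (2571 TPM), but with the shortest Uqcrq exceeded it (982 TPM for Uqcrc1). The 6 members of complex IV lay within a factor of 2.20, from Cox6b1 down to Cox7b at 556 ± 45.6 TPM. With the shortest principal transcript Cox6c (1235 TPM) lay above Cox6b1 (1156 TPM).

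Complex V was the most uneven, its highest and lowest members, Atp5b and Atp5g1, differing 780-fold. The size of this ratio depended on the length of 4715 bases used for Atp5g1. With the shortest principal transcript (596 bases for Atp5g1) Atp5b stood at 3018 TPM and Atp5g1 at 30.7 TPM. Without the c-ring the ratio was 14.4, from Atp5b down to Atp5j, a peripheral stalk subunit, at 221 ± 43.2 TPM. Among the other F1 subunits, Atp5e (epsilon) stood at 708 TPM, Atp5d (delta) at 454 TPM and Atp5c1 (gamma) at 439 TPM. The peripheral stalk subunits Atp5o and Atp5h stood at 640 and 636 TPM, and the membrane subunits Atp5l, Atp5j2 and Atp5k at 815, 489 and 436 TPM. The c-ring genes stood at 348 ± 83.9 TPM for Atp5g3, 21.9 ± 5.08 TPM for Atp5g2 and 4.09 ± 2.92 TPM for Atp5g1. The 2 low values depended on length too, being 34.3 TPM for Atp5g2 and 30.7 TPM for Atp5g1 with the shortest principal transcript. Atp5g3 was the highest of the 3 under either length, at 334 TPM with the shortest.

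**Figure D1:**
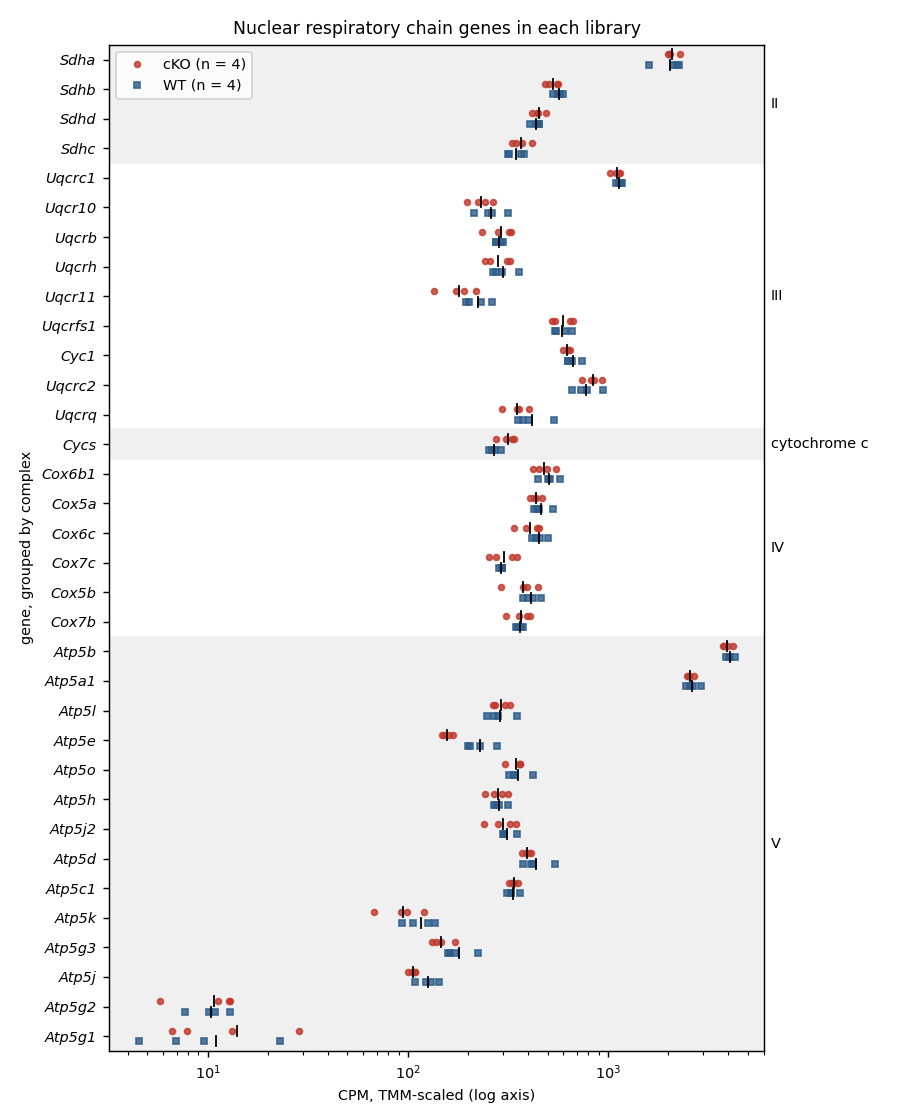
Level of each of the 34 genes in every library, as TMM-scaled CPM on a logarithmic axis, with circles for cKO above squares for WT and a black bar at each group mean (n = 4 each). Genes are grouped by complex and ordered within it by TPM. Atp5e shows the cKO libraries (148 to 169 CPM) apart from the WT libraries (200.4 to 281 CPM), and Atp5g1 and Atp5g2 lie far to the left of the others.

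Between cKO and WT, Atp5e had the smallest p of the members and no member passed the adjusted threshold in edgeR. That is, 0 of the 34 passed edgeR's quasi-likelihood test at an adjusted p of 0.05, against 10 of the 14553 genes tested (0.0687%). At an unadjusted p of 0.05, 2 members passed (5.88%), Atp5e and Atp5j, against 815 genes (5.6%), a share close to the background, and with both members lower in cKO, against 502 genes lower (3.45%). This count was 1 without WT replicate 2, WT replicate 4, cKO replicate 2 or cKO replicate 4, 3 without WT replicate 1, and 4 without cKO replicate 1 or cKO replicate 3. The share over all genes in those fits is not given here, so these counts have no background of their own. DESeq2 called 1 member, Atp5e, against 46 genes (0.316%), and limma-voom called none, against 10 genes (0.0687%). The CPM values of the groups did not overlap for 1 member, Atp5e, lower in cKO (2.94%), against 2.27% of genes tested, and for 0 members higher in cKO, against 1.23% of genes. In either direction this held for 3.5% of genes.

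The fitted log2 fold changes, cKO over WT, were negative for 21 members and positive for 13, with a median of -0.05 and a range of -0.54 to 0.37. Over all genes tested the median was 0.01 and 48.2% were negative. The median lay at -0.01 without cKO replicate 1 and at -0.01 without WT replicate 3, and at -0.08 without cKO replicate 2 or cKO replicate 3. The libraries cKO replicate 1 and WT replicate 3 were those that most often stood at an end of the range, cKO replicate 1 having the lowest CPM of the 8 for 23 of the 34 members and WT replicate 3 the highest for 17. The library with the lowest values for most members also had the highest sum of muscle markers, whose part in this was not tested.

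The data were precise enough to bound most members closely. The 95% interval of the fold change lay within 1.5-fold in either direction for 30 of the 34, against 52.6% of all genes tested. The other 4 members were Atp5e, Uqcr11, Atp5k and Atp5g1. Most members were far more abundant than most genes tested, and this share was not counted over genes of like level. The median standard error was 0.12 on the log2 scale for members and 0.18 for all genes. Within groups the median SD of log2 CPM was 0.16 over members, 0.18 over 788 genes of like level and 0.25 over all genes tested. The range of like levels ran up to the highest member and left out the levels of the lowest members, Atp5g1 and Atp5g2 among them. The lowest SD was that of Uqcrc1 (0.060) and the highest that of Atp5g1 (0.96).

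**Figure D2:**
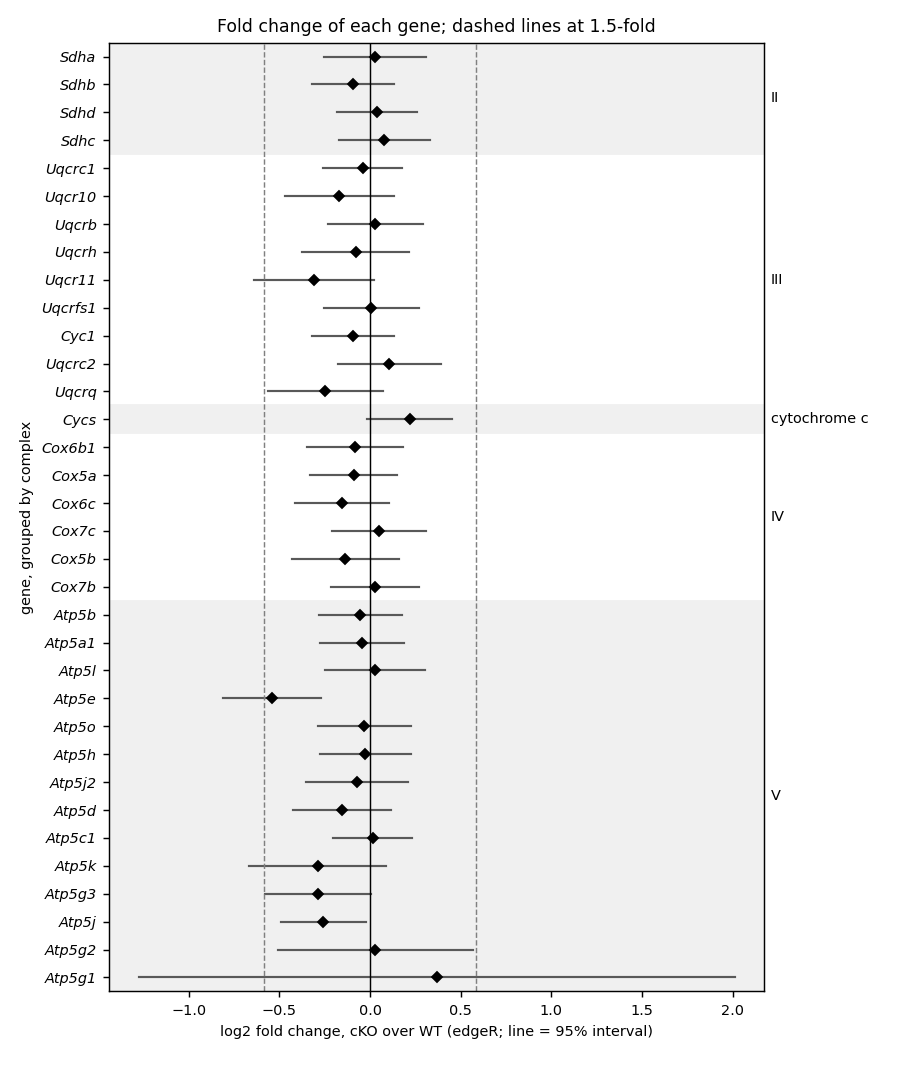
Log2 fold change of each gene, cKO over WT, as a diamond with its 95% interval from edgeR, grouped by complex, with dashed lines at 1.5-fold. All but 4 of the 34 intervals lie between the dashed lines, that of Atp5e (-0.81 to -0.27) lies left of 0, and that of Atp5g1 runs from -1.27 to 2.01.

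Complex II, which links the citric acid cycle to the chain, gave 1 negative and 3 positive fold changes. Sdha had 2018, 2307, 1992 and 2037 CPM in cKO libraries, against 2261, 2217, 1609 and 2109 CPM in WT libraries, and WT replicate 3 lay below all others. Sdhc had 331, 371, 417 and 347 CPM in cKO libraries, against 380, 316, 320 and 370 CPM in WT libraries. The ranges overlapped for both, the log2 fold changes being 0.03 (95% interval -0.25 to 0.31) for Sdha and 0.08 (-0.17 to 0.33) for Sdhc. Sdhb and Sdhd were at -0.09 and 0.04. The summed complex came to 3437 ± 207 CPM in cKO and 3402 ± 288 CPM in WT libraries.

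In complex III, which passes electrons from ubiquinol to cytochrome c, 6 of 9 fold changes were negative. The larger catalytic and core subunits were close to level. Uqcrc1 had 1031, 1142, 1157 and 1103 CPM in cKO libraries, against 1173, 1098, 1159 and 1131 CPM in WT libraries, a log2 fold change of -0.04 (-0.26 to 0.18). Uqcrc2, the second core protein, the Rieske iron-sulfur protein Uqcrfs1 and cytochrome c1 (Cyc1) were at 0.11, 0.01 and -0.10. Together these 4 summed to 3170 ± 213 CPM in cKO and 3183 ± 160 CPM in WT libraries. The 5 small supernumerary subunits summed to 1341 ± 186 CPM in cKO and 1489 ± 188 CPM in WT libraries, with overlapping ranges and a median log2 fold change of -0.17.

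Among these small subunits, Uqcr11 had 135, 192, 220.1 and 174 CPM in cKO libraries, against 203, 232, 263 and 196 CPM in WT libraries. Its ranges overlapped through cKO replicate 3, and its log2 fold change of -0.31 (-0.64 to 0.02) had an unadjusted edgeR p of 0.0646 and an adjusted p of 0.886. Uqcrq had 295, 360, 403 and 352 CPM in cKO libraries, against 375, 405, 536 and 355 CPM in WT libraries, the highest WT value being that of replicate 3. Its log2 fold change was -0.25 (-0.57 to 0.07). Uqcr10, Uqcrh and Uqcrb were at -0.17, -0.08 and 0.03.

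The fold change of Cycs was positive when its counts were taken alone and close to 0 when its copies were added. Cycs had 276, 333, 341 and 312 CPM in cKO libraries, against 265, 255, 293 and 272 CPM in WT libraries. Only the lowest cKO library fell inside the WT range, and the log2 fold change was 0.22 (-0.02 to 0.45), with an unadjusted edgeR p of 0.0654 and an adjusted p of 0.886. The copy Gm10053 had 476, 513, 526 and 471 CPM in cKO libraries, against 579, 591, 571 and 530 CPM in WT libraries, so that the highest cKO value was below the lowest WT value, with a log2 fold change of -0.19 and an adjusted p of 0.889.

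Gm13772 was given 126, 170, 225 and 104 counts in cKO libraries, against 0 counts in each WT library, where 3 counts would be 0.0931 to 0.226 CPM. Its adjusted p in edgeR was 0.000279, and its 7.72 to 16.98 CPM in cKO libraries compare with 471 to 526 CPM of Gm10053 in the same libraries. Of the other 4 listed copies, Gm13252 averaged 0.105 CPM in cKO and 0.0280 CPM in WT libraries, and Gm10108, Gm11625 and Cycs-ps2 were listed at 0 in all 8. Summed over Cycs and its copies, the level was 761, 863, 882 and 790 CPM in cKO libraries, against 844, 845, 864 and 802 CPM in WT libraries. The log2 fold change of the sum was -0.03 (-0.25 to 0.20), and Cycs made up 38.3% of it in cKO and 32.3% in WT libraries. Since the coding bases of Cycs and Gm10053 are the same, reads within them cannot separate the 2 genes.

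**Figure D3:**
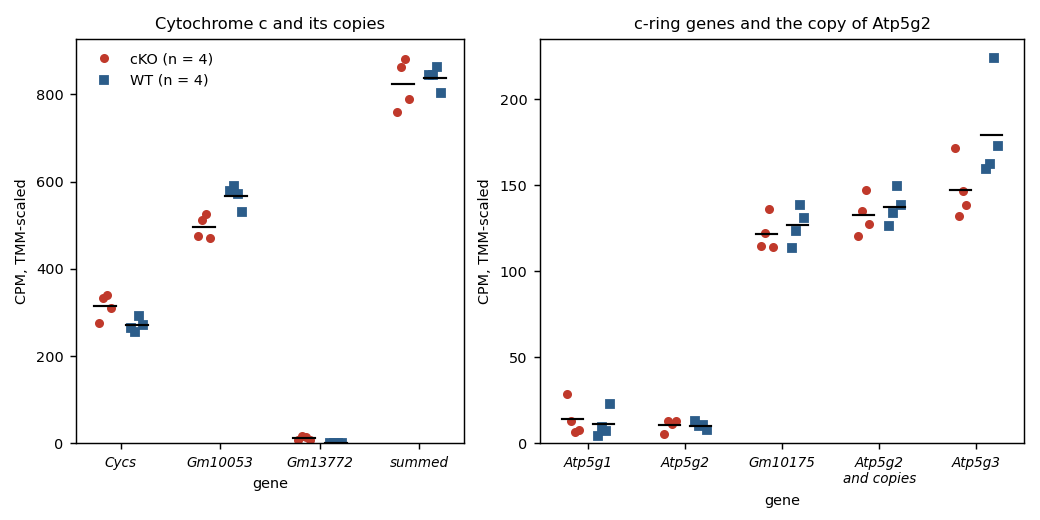
CPM per library of cytochrome c and its copies (left) and of the c-ring genes with Gm10175, the copy of Atp5g2 (right), with circles for cKO left of squares for WT and a black bar at each group mean (n = 4 each). The means of Cycs are 315 and 271 CPM in cKO and WT libraries, with overlapping groups, those of Gm10053 are 497 and 568 CPM, without overlap, neither gene passed the adjusted threshold in edgeR, and the sums overlap at 824 ± 57.8 and 839 ± 26.1 CPM in cKO and WT libraries.

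Complex IV, which reduces oxygen, gave 4 negative and 2 positive fold changes, all between -0.16 and 0.05. Cox6b1 had 422, 496, 550.4 and 453 CPM in cKO libraries, against 501, 512, 576 and 447 CPM in WT libraries. Cox7b had 311, 394, 408 and 362 CPM in cKO libraries, against 349, 357, 377 and 366 CPM in WT libraries. The ranges overlapped for both, that of Cox7b in WT lying inside that in cKO, and the log2 fold changes were -0.08 (-0.35 to 0.18) for Cox6b1 and 0.03 (-0.22 to 0.27) for Cox7b. Cox6c, Cox5b and Cox5a were at -0.16, -0.14 and -0.09, and Cox7c at 0.05. The summed complex came to 2373 ± 277 CPM in cKO and 2496 ± 172 CPM in WT libraries.

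In ATP synthase 10 of 14 fold changes were negative. Atp5b had 3745, 4199.5, 3974 and 3802 CPM in cKO libraries, against 4302, 4093, 4012 and 3902 CPM in WT libraries. The ranges overlapped, and the log2 fold change was -0.05 (-0.28 to 0.17). Atp5a1, Atp5c1 and Atp5d were at -0.04, 0.02 and -0.16. The 14 genes summed to 8984 ± 415 CPM in cKO and 9416 ± 265 CPM in WT libraries.

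Atp5e, which encodes the small epsilon subunit of the central stalk, stood apart from the rest of the F1 head. It had 148, 160, 169 and 152 CPM in cKO libraries, against 205, 229, 281 and 200.4 CPM in WT libraries, and the highest cKO library lay below the lowest WT library. The log2 fold change was -0.54 (95% interval -0.81 to -0.27), with an unadjusted edgeR p of 0.000916. With an adjusted p of 0.493 it did not pass in edgeR, with an adjusted p of 0.601 it did not pass in limma-voom, and with an adjusted p of 0.0134 it passed in DESeq2. Without the filter on low counts, edgeR gave it an adjusted p of 0.0113, among 93 of 35502 genes called (0.262%). Over all alternatives its log2 fold change lay between -0.59 (without WT replicate 1) and -0.42 (without WT replicate 3). No exact match to its principal transcript was found in another gene of the annotation used here. Near-identical copies were not searched for, and whether the division of reads among like sequences affected its counts was not tested.

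Atp5e lies at chr2:174461072-174464105 on the minus strand (GRCm38). Within 1 Mb of it 18 other genes were tested, and their values are given because a gene called between the groups, Gm14440, lies 811020 bases away. Gm14440 averaged 12.3 CPM in cKO libraries and was listed at 0 in every WT library, with an edgeR adjusted p of 4.02e-05. Of the 16 protein-coding genes in the window 8 had a negative log2 fold change, and the median was -0.02. The groups did not overlap for 3 of the 16, against 3.5% of all genes tested in either direction. These were Vapb and Npepl1, lower in cKO, and Gm14440, higher in cKO. The nearest neighbour, Prelid3b, 962 bases away, was at 0.06, and Nelfcd, a subunit of the negative elongation factor 33570 bases away, at -0.28, with an unadjusted edgeR p of 0.0494 and an adjusted p of 0.884. This window was chosen after the values of Atp5e were seen, and any part of the neighbourhood in the value of Atp5e was not tested.

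The peripheral stalk, which holds the head of ATP synthase still against the rotor, had 3 negative fold changes of 3. Atp5j, its F6 subunit, had 109, 105, 109 and 100.4 CPM in cKO libraries, against 109, 124, 143 and 131 CPM in WT libraries. The groups met at 109 CPM, and the log2 fold change was -0.26 (-0.49 to -0.02), with an unadjusted edgeR p of 0.0348 and an adjusted p of 0.882. Atp5j shares 397 exon bases with Gabpa on the opposite strand, and the strand setting of the counting is not given in the sources used here. Gabpa, a regulator of respiratory genes, was at 0.19. Atp5h and Atp5o were at -0.03 and -0.03. Of the membrane subunits, Atp5k was at -0.29 (-0.67 to 0.09), with the 4 cKO libraries at 67.8 to 121 CPM and the 4 WT libraries at 93.6 to 138 CPM, and Atp5j2 and Atp5l were at -0.07 and 0.03.

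Of the c-ring genes, Atp5g3 had 172, 132, 147 and 139 CPM in cKO libraries, against 159, 162, 224 and 173 CPM in WT libraries. The ranges overlapped through cKO replicate 1, and the log2 fold change was -0.29 (-0.58 to 0.01), with an unadjusted edgeR p of 0.0554 and an adjusted p of 0.886. Atp5g2 had 5.76, 12.8, 11.3 and 13.0 CPM in cKO libraries, against 13.0, 10.1, 10.8 and 7.70 CPM in WT libraries, a log2 fold change of 0.03 (-0.51 to 0.57). The 438 coding bases of Atp5g2 are held without a difference by Gm10175 (chr7:23946646-23947290, minus strand), a transcribed pseudogene with 122 ± 10.2 CPM in cKO and 127 ± 10.6 CPM in WT libraries. Atp5g2 made up 8.08% of the sum of the gene and its copies in cKO and 7.60% in WT libraries, so the low level of Atp5g2 rests on how the counts were divided. Summed with its copies it had 133 ± 11.5 CPM in cKO and 137 ± 9.55 CPM in WT libraries.

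Atp5g1, the c-ring gene linked to the low ATP synthase of brown fat, had 28.5, 13.3, 6.66 and 7.87 CPM in cKO libraries, against 4.54, 9.65, 6.95 and 23.1 CPM in WT libraries. The groups overlapped over nearly their whole range. The highest library of each group, cKO replicate 1 and WT replicate 4, was also the one with the most muscle marker RNA in its group, 11712 and 8962 CPM, and the lowest library of all, WT replicate 1, had the least, 75.2 CPM. The part of muscle RNA in the level of Atp5g1 was not tested. The log2 fold change of 0.37 (-1.27 to 2.01) moved to -0.24 without cKO replicate 1 and to 1.03 without WT replicate 4. In all, the c-ring genes gave 172 ± 22.8 CPM in cKO and 201 ± 29.4 CPM in WT libraries, of which Atp5g3 was 85.6% and 89.3%. With the copies included the values were 294 ± 21.2 CPM in cKO and 328 ± 39.4 CPM in WT libraries, and Atp5g3 made up 50.1% and 54.8%. The groups overlapped either way.

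Of the 43 copies listed for 19 members, 5 reached a mean of 1 CPM in either group. These levels come from the same division of reads between members and copies. They therefore cannot show how much copies mattered for the other members. At least 50% of the principal transcript was shared for 5 members, Uqcrb, Cox7c, Atp5g2, Atp5h and Atp5l. Uqcrb had 235 to 329 CPM in cKO and 276 to 299 CPM in WT libraries, Cox7c 256 to 350.1 CPM in cKO and 287 to 297 CPM in WT libraries, and Atp5h 244 to 319 CPM in cKO and 270 to 317 CPM in WT libraries. Atp5l had 268, 308, 326 and 275 CPM in cKO libraries, against 268, 249.8, 352 and 283 CPM in WT libraries, and its copy Gm10221 added 38.4 ± 11.7 CPM in cKO and 39.7 ± 8.68 CPM in WT libraries. The ranges of all 4 overlapped, and their log2 fold changes lay between -0.03 and 0.05.

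The fold changes of the members varied with transcript length. Of the 18 members under 1 kb, 14 had a negative log2 fold change and the median was -0.09, whereas of the 16 members of 1 kb or more 7 did and the median was 0.01. Across the 34 genes, which are not independent replicates, log2 fold change and length had a Pearson r of 0.62 and a Spearman rho of 0.47. The Spearman coefficient was 0.45 with the shortest principal transcript, 0.54 with the median coding transcript and 0.26 with the union of exons. It was 0.22 without cKO replicate 1 and 0.25 without WT replicate 3. The shortest members were Atp5k (371 bases, log2 fold change -0.29), Atp5e (421 bases, -0.54), Uqcr10 (434 bases, -0.17) and Uqcr11 (445 bases, -0.31).

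Over all genes tested, the classes of shorter transcripts also had the lower medians. The r of 0.62 and rho of 0.47 of the members stood against 0.065 and 0.15 over the 14541 genes with a length. The 2 sets differ in length, with medians of 910 bases for members and 2908 bases for all genes tested. The difference between their coefficients was not tested. The r of the members was 0.55 without Atp5g1 and Atp5g2, 0.58 without Cycs and 0.35 with the union of exons. The median log2 fold change of the members was -0.08 under 0.7 kb, -0.14 at 0.7 to 1 kb, -0.04 at 1 to 2 kb and 0.08 at 2 kb or more. All genes tested in those classes had medians of -0.08 (509 genes), -0.09 (621 genes), -0.04 (3126 genes) and 0.03 (10285 genes). The class medians thus differed by at most 0.05 between members and all genes, and Atp5e, at -0.54, lay below the median of its class in either set.

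Per library, the summed CPM of members under 1 kb was 29.2%, 31.4%, 35.1% and 31.2% of that of the longer members in cKO libraries, against 30.7%, 33.1%, 39.4% and 32.1% in WT libraries. The groups overlapped, with cKO replicate 1 lowest and WT replicate 3 highest. The 700 other nuclear protein-coding genes under 1 kb gave 5.64%, 6.32%, 7.53% and 6.15% of the longer ones in cKO libraries, against 6.44%, 6.72%, 8.59% and 6.76% in WT libraries, with the same libraries at the ends. Whether fragmentation, library preparation or length-dependent counting had a part in this was not tested.

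**Figure D4:**
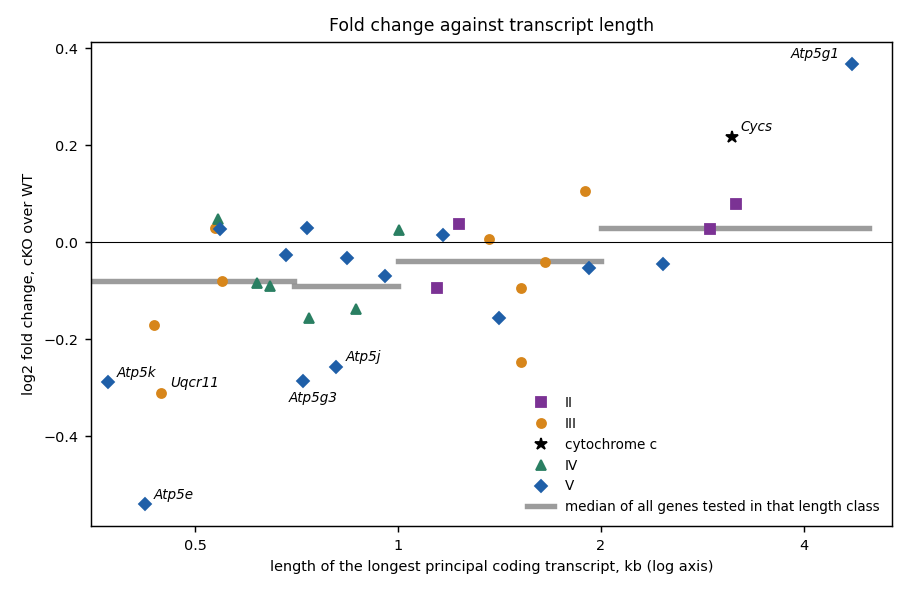
Log2 fold change, cKO over WT, of each of the 34 genes against the length of its longest principal coding transcript in kb on a logarithmic axis, with a marker for each complex. Grey bars are the medians of all genes tested in 4 length classes, which run from -0.08 for the shortest to 0.03 for the longest, and the members scatter around them with Atp5e lowest.

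The nuclear members were then set beside their partners from the mitochondrial genome. All 6 mitochondrially encoded subunits of complexes III to V had positive log2 fold changes, and their median was 0.31. None passed the adjusted threshold in edgeR, and 3 of the 6 had an unadjusted p under 0.05, against 5.6% of all genes tested, with mt-Cytb at 0.27, mt-Atp6 at 0.36 and mt-Atp8 at 0.70. The counts of the nuclear members of complexes III to V amounted to 8.50%, 8.38%, 8.34% and 7.83% of the counts of these partners in cKO libraries, against 9.59% to 11.1% in the 4 WT libraries. Every cKO library lay below every WT library.

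By complex, this percentage was 13.6 ± 0.802 in cKO and 16.99 ± 2.19 in WT libraries for complex III. It was 2.12 ± 0.135 in cKO and 2.65 ± 0.19 in WT libraries for complex IV, and 19.1 ± 1.34 in cKO and 27.0 ± 1.73 in WT libraries for complex V. The groups overlapped in none of the 3. The mitochondrial partners have nuclear copies of their own, and the largest share of 31-base sequences held by 1 copy was 99.9% for mt-Co3, 99.5% for mt-Co2, 99.5% for mt-Atp6, 45.2% for mt-Co1, 7.47% for mt-Atp8 and 6.55% for mt-Cytb. These copies together had 12406 ± 4242 CPM in cKO and 10044 ± 3646 CPM in WT libraries, and the groups overlapped. With those copies added to the mitochondrial counts, the values for complexes III to V were 8.04%, 7.67%, 7.97% and 7.39% in cKO libraries, against 10.3%, 10.1%, 10.3% and 9.12% in WT libraries. No test was made on these ratios, which are sums over members. The members leave out some nuclear subunits, among them the paired isoforms of complex IV and Atp5f1 of complex V. The percentages thus set a part of the nuclear subunits against the mitochondrially encoded ones.

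**Figure D5:**
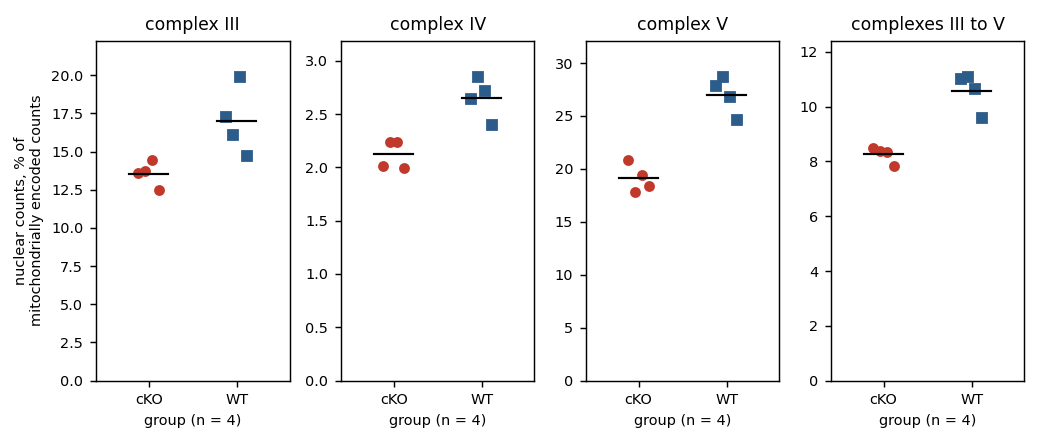
Counts of the listed nuclear subunits of complexes III, IV and V, and of the 3 together, as a percentage of the counts of the mitochondrially encoded subunits of the same complexes, with a point per library (circles for cKO, squares for WT), a black bar at each group mean and axes that start at 0. The list leaves out some nuclear subunits, among them the paired isoforms of complex IV. In each panel all 4 cKO libraries lie below all 4 WT libraries.

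How the members compared between groups therefore depended on the denominator. All transcripts of the mitochondrial genome took 30.2 ± 2.31% of counts in cKO and 26.2 ± 1.48% in WT libraries. As a share of all counts the 34 members took 1.78%, 1.95%, 1.98% and 1.82% in cKO libraries, against 2.07%, 2.10%, 2.24% and 2.00% in WT libraries, with no overlap. As TMM-scaled CPM they summed to 18085, 20821, 20457 and 19115 in cKO libraries, against 20840, 20084, 20490 and 19616 in WT libraries, and the groups overlapped. On the TPM scale, where mitochondrial transcripts made up 53.3 ± 1.85% in cKO and 47.7 ± 1.82% in WT libraries, the summed members came to 22240 ± 858 TPM in cKO and 26890 ± 1632 TPM in WT libraries, a ratio of 0.827 with no overlap. By complex the TPM sums were 2369 ± 79.2 in cKO and 2716 ± 135 in WT libraries for complex II, 5956 ± 337 in cKO and 7229 ± 599 in WT libraries for complex III, 4781 ± 351 in cKO and 5768 ± 488 in WT libraries for complex IV, and 8991 ± 276 in cKO and 11037 ± 613 in WT libraries for complex V. None of these 4 overlapped between groups. Cycs, counted without its copies, did overlap, at 143 ± 6.05 TPM in cKO and 141 ± 8.57 TPM in WT libraries. That value rests on how reads were divided between Cycs and Gm10053, and the sum with the copies was not taken as TPM. The share of all counts overlapped between groups for complexes II, III and IV and for Cycs without its copies. It did not overlap for complex V, at 0.861 ± 0.0304% in cKO and 0.977 ± 0.0476% in WT libraries. With the genes of the mitochondrial genome left out before scaling, the median log2 fold change of the members was -0.04 and 0 were called in edgeR. In bulk tissue, fewer cells of a type and less RNA per cell cannot be told apart.

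Genes that build or control these complexes were taken from lists of their own. Of 36 assembly factors 35 were tested and none was called in edgeR. At an unadjusted p of 0.05, 4 of the 35 passed, against 5.6% of all genes tested, namely the complex II factor Sdhaf1 (-0.30) and the complex III factor Uqcc3 (-0.31) with negative log2 fold changes, and Cox15 (0.37), which makes haem a, and Hccs (0.38), which attaches haem to cytochrome c, with positive ones. The median over assembly factors was 0.05. Pet117 did not pass the count filter. The other 4 listed subunits, Atp5f1, Usmg5, 2010107E04Rik and Ndufa4, lay between -0.12 and 0.08. Of 8 transcription regulators, among them Ppargc1a (0.35), Nrf1 (-0.17) and Esrra (-0.12), 0 had an unadjusted p under 0.05.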

How the data were processed

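The authors deposited 1 table of estimated counts per Ensembl gene and library. The submitters' processing notes name StringTie, Salmon and edgeR with the build GRCm38, without versions. The sources used here do not state the annotation release, the strand setting or any filter. Counts of this kind divide reads among transcripts of like sequence, so genes with copies depend on that division. Symbols, lengths and transcript sequences came from GENCODE M21, which named 54131 identifiers (99.5%).

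The deposited estimated counts were rounded, filtered with filterByExpr (14553 genes, all 34 members) and scaled by TMM. The quasi-likelihood test of edgeR 4.0.16 with robust fitting, run in R 4.3.3, compared the groups over all genes with group as the only term, and p-values were Benjamini-Hochberg adjusted. DESeq2 1.42.0, limma-voom (limma 3.58.1), other scalings and filters, each library left out, WT replicate 4 left out or moved, and copies summed were alternatives. The pipeline was tested on simulated data. Replicates of a group always differed beyond sampling noise. Shared sequence was the share of 31-base sequences found in other genes. Copies hold at least 2% of a member's sequences.

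The members and lists were chosen with earlier results of these data known. Values per library are given for the highest and lowest member of each complex, the c-ring genes, the 5 smallest edgeR p-values, members called by any tool and members whose groups do not overlap.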

Additional observations from a re-analysis of the deposited data

Results flagged for a closer look

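In groups of 4 libraries, a library whose gap to its nearest neighbour took up most of the range of its group was looked for in each member, and chance alone marks about 1 in 20 groups. Of 68 groups 3 were marked. Sdha, the flavoprotein of complex II, had 2307 CPM in cKO replicate 2, against 1992 to 2037 CPM in the other cKO libraries. Atp5o, a peripheral stalk subunit of ATP synthase, had 306.5 CPM in cKO replicate 1, against 359 to 363 CPM in the other cKO libraries. Atp5j2, a membrane subunit of ATP synthase, had 352 CPM in WT replicate 3, against 298 to 304 CPM in the other WT libraries. The cause of these values was not tested.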

How the results depend on the processing

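The count of members called was 0 in edgeR and limma-voom, 1 with DESeq2 (46 genes called over all) and 1 without the count filter (93 genes called over all), the member being Atp5e both times. With WT replicate 4 moved to cKO, 1 gene was called over all and 0 members. Leaving out each library gave 8 to 14 genes called, 0 members called, medians of the members' log2 fold change of -0.08 to -0.01 and a rho with length of 0.22 to 0.56. Of 646 member fold changes under 19 alternatives, 607 kept their direction and side of the threshold, 2 (Atp5e) passed it and 37 changed sign, all of members with intervals that include 0. The cause of the sign changes was not tested. With copies of at least 2% summed, Cycs was at -0.026 and Atp5g2 at -0.049. Atp5g2 was at -0.082 with limma-voom and at -0.17 with WT replicate 4 moved. Uqcrfs1 was at -0.0054 with upper quartile factors, at -0.012 without the filter and at -0.051 with WT replicate 4 moved, and Atp5c1 at -0.0015 without the filter. Leaving out each library changed the sign of 15 members at least once, with lowest and highest values of -0.076 and 0.0032 (Atp5a1), -0.025 and 0.14 (Atp5l), -0.051 and 0.070 (Uqcrfs1), -0.069 and 0.078 (Sdha), -0.15 and 0.023 (Uqcrh), -0.0093 and 0.070 (Atp5c1), -0.089 and 0.046 (Atp5h), -0.076 and 0.065 (Atp5o), -0.081 and 0.24 (Atp5g2), -0.24 and 1.03 (Atp5g1), -0.15 and 0.029 (Atp5j2), -0.0065 and 0.078 (Sdhd), -0.034 and 0.13 (Uqcrb), -0.027 and 0.11 (Cox7b) and -0.027 and 0.13 (Cox7c).

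With the replicate number as a block, 7 genes were called over all and 0 members, and Atp5g2 was at -0.00068. The deviations of same-numbered libraries had correlations of -0.46, 0.035, 0.41 and 0.0016. Those of differently numbered libraries ran from -0.57 (cKO replicate 3 and WT replicate 4) to 0.47 (cKO replicate 1 and WT replicate 4). With values that spread this far, whether the numbers pair the libraries could not be decided. TPM levels moved by over 1.5 times for 3 members with the shortest principal transcript, for 4 with the median coding transcript and for 16 with the union of exons. The copies of at least 2%, the shortest transcript and the mitochondrial copies were chosen after seeing the data. The 34 members were deep enough that counting error was small, Atp5g1 and Atp5g2 excepted.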
